A study of Rattus norvegicus with 12 samples.

Results

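Transforming growth factor beta (TGF beta) signalling was followed through 4 groups of rat livers that stand for successive stages of chemically induced liver cancer. The genes described are 3 ligands (Tgfb1, Tgfb2 and Tgfb3), both receptor chains (Tgfbr1 and Tgfbr2), the Smads Smad3 and Smad7, the pseudoreceptor Bambi and the target and ligand activator Thbs1. A probe set, the group of oligonucleotides that reads 1 transcript on the array, was counted for a gene if the platform annotation gave it that gene symbol and no other. By this rule 7 of the 9 genes had a probe set, and together they had 12 of the 20826 probe sets that were assigned to a single gene. No probe set carried the symbols Tgfbr2 or Thbs1 in the annotation used, and both genes were not analysed here.

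The study hybridised RNA from male adult Sprague-Dawley rat livers to single-colour rat genome arrays, 12 in all and 3 in each group. The controls received distilled water, and their time of sacrifice is not given in the labels. The other 3 groups received diethylnitrosamine (DEN), an alkylating liver carcinogen that hepatocytes activate, injected into the peritoneum at 70 mg/kg once per week in a schedule of 10 weeks. Livers were taken at the end of week 5 for the hepatitis group and at week 13 or 14 for the cirrhosis group. Those of the hepatocellular carcinoma (HCC) group were taken at week 23 or 24, so that stage goes together with time. By this schedule the hepatitis group had fewer injections than the cirrhosis and HCC groups, which were taken after its end. The HCC group is described as HCC tissue in the design text while its tissue label reads liver, as it does for every sample. Nothing in the labels says that each array came from a separate animal, so the p-values measure the spread between these samples, which may be technical.

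TGF beta ligands are secreted in a latent form, bound to matrix proteins, and are released by integrins and proteases. The active ligand joins the receptor kinases encoded by Tgfbr2 and Tgfbr1, and Tgfbr1 phosphorylates Smad2 and Smad3, which enter the nucleus with Smad4 and act on target genes. Smad7, itself a target, blocks the receptor, and Bambi is a receptor-like protein without a kinase that dampens the signal. In the liver the pathway is known for activating stellate cells into collagen-producing myofibroblasts and for limiting hepatocyte growth, and in established tumours it is known to be able to promote invasion.

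The HCC group was set off from the rest. On the first principal component, which held 58.6% of the variance, they lay at 45.1 to 96.1 and the other 9 arrays at -29.5 to -12. Replicates correlated across probe sets at 0.951 to 0.965 in HCC, against 0.985 to 0.997 within the other groups, and the log2 difference between the 3′ and 5′ probe sets of Gapdh, a sign of RNA degradation, was 1.36 to 3.2 in HCC arrays against 0.38 to 1.03 in the other 9. Hepatocyte markers were present on every array, with a summed intensity of 43711 to 68239 in HCC and 78243 to 79202 in controls. Skeletal muscle markers summed to 3634 in control replicate 2, against 1646 and 1494 in control replicates 1 and 3. They summed to 1839 to 2432 in hepatitis, 1736 to 2154 in cirrhosis and 1321 to 2752 in HCC. The mean of log2(intensity + 16) over these 11 markers was 5.29 to 7.58 in controls. In hepatitis it was 5.37 to 5.48, in cirrhosis 5.35 to 5.39 and in HCC 5.32 to 5.43. The part of muscle in the differences from control was not tested. The tumour marker Afp, alpha-fetoprotein, read 9199, 576 and 7098 in HCC replicates 1, 2 and 3 and 89.4 to 128 in controls, and Gpc3, glypican 3, read 1705, 39.7 and 193 in HCC and 21.3 to 33.1 in controls. Hepatitis and cirrhosis arrays read 175 to 257 and 198 to 250 for Afp, and 39.1 to 73.4 and 53.3 to 59.7 for Gpc3. HCC replicate 2 was the lowest of the 3 for both markers, and for Gpc3 it lay below every cirrhosis array. The part of RNA quality in the differences of the HCC group was not tested, and in whole tissue fewer cells of a type and less RNA per cell cannot be told apart.

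Of the 7 measured genes, Tgfbr1, Smad3 and Tgfb2 changed with stage, and Tgfb3, Smad7 and Bambi passed the threshold in none of the 6 pairwise comparisons. A difference was called at an adjusted p under 0.05 (limma over all 31042 probe sets, Benjamini-Hochberg), and is given on the scale of log2(intensity + 16), which understates the change of dim probe sets. With each gene read by its probe set of highest mean, 3 of 7 genes were called for any difference among the 4 groups, where 33.2% of all probe sets were. In a fit on 1 probe set per gene the same 3 were called, beside 40.4% of all genes. The count is near that share and shows nothing about the members as a group. HCC against control called 3 genes, Tgfbr1, Smad3 and Tgfb2, all higher, beside 29.8% of all probe sets and 37.4% of all 14217 genes read the same way (19.1% higher and 18.3% lower). Hepatitis against control called 1 gene, Tgfbr1, beside 2.95% of probe sets and 3.73% of genes (1.72% higher). Cirrhosis against control called 0 of 7, with 2 at an unadjusted p under 0.05 (Tgfb2 and Tgfbr1), beside 3.62% of probe sets and 3.64% of genes (1.65% higher and 1.99% lower). The median difference over the 7 genes was 0.28 in hepatitis, 0.17 in cirrhosis and 0.39 in HCC, where the medians over all probe sets were -0.01, -0.00 and 0.01.

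Between the treated groups, HCC against cirrhosis called 1 of 7 genes, Smad3, beside 32.2% of probe sets and 36.9% of genes. HCC against hepatitis called 2, Smad3 higher and Tgfb1 lower, beside 29.0% of probe sets and 34.3% of genes. Cirrhosis against hepatitis called 0, with 1 at an unadjusted p under 0.05 (Tgfb2), beside 0.651% of probe sets and 0.830% of genes. The 3, 1 and 2 of 7 called in the comparisons that involve HCC are near or below the shares over all genes, so these counts show nothing about the members as a group. The comparisons with control share the same 3 control arrays and are not independent of each other.

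**Figure D1:**
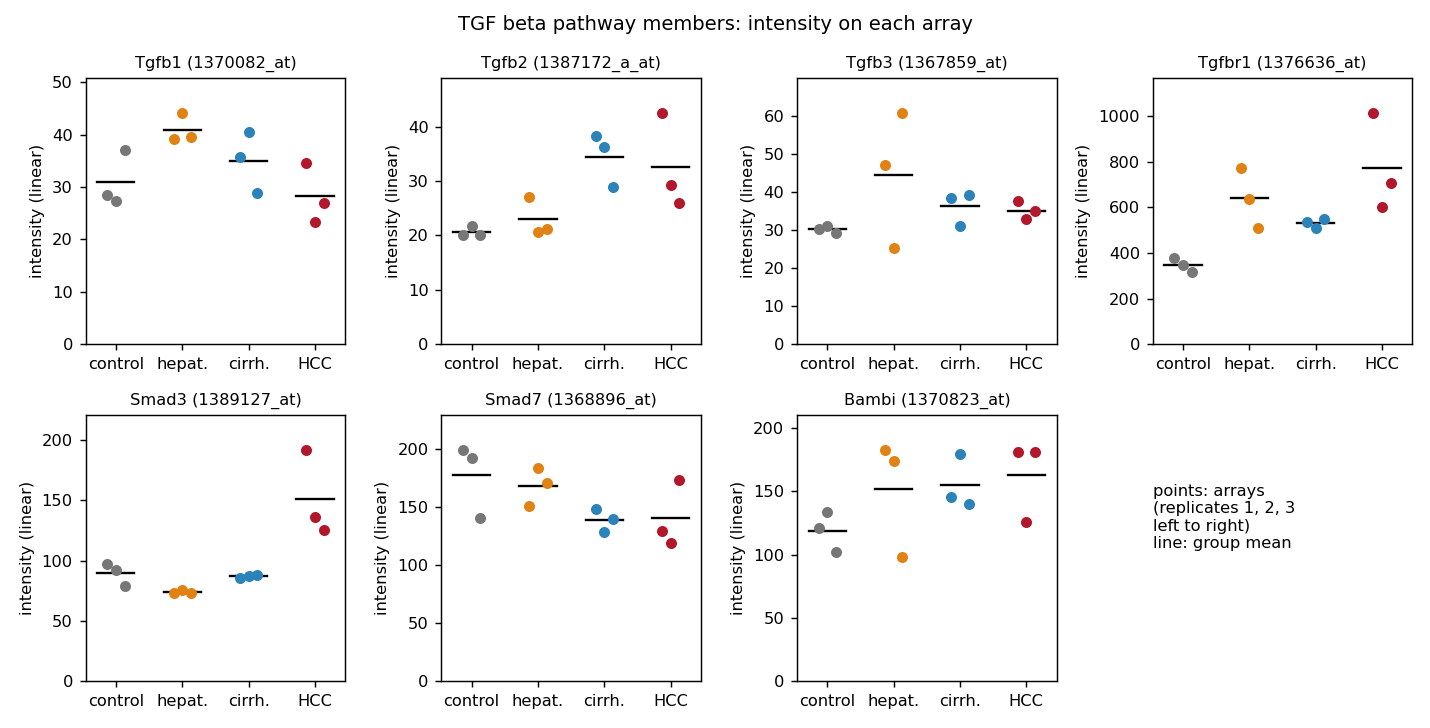
Linear intensity (y axis) of the 7 measured genes on each of the 12 arrays, by group in order of stage, with a line at each group mean of 3 arrays and replicates 1 to 3 from left to right. All 3 HCC points of Smad3 lie above the other 9, all 9 Tgfbr1 points of the DEN groups lie above the 3 controls, and HCC replicate 1 is the highest HCC point for Tgfbr1, Smad3 and Tgfb2.

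The promoters of the genes that differed most from control, Tgfbr1 and Smad3, are shown because both were called higher in HCC. RefSeq promoter windows were matched for all 9 genes, on build GRCr8, each running from 250 bases before the annotated start to 50 bases from it on. The Tgfbr1 window lies at chr5:66449148-66449447 on the plus strand and the Smad3 window at chr8:73132275-73132574 on the minus strand. Capitals mark the GC box GGGCGG or, where it lies on the opposite strand, its reverse complement.
Tgfbr1: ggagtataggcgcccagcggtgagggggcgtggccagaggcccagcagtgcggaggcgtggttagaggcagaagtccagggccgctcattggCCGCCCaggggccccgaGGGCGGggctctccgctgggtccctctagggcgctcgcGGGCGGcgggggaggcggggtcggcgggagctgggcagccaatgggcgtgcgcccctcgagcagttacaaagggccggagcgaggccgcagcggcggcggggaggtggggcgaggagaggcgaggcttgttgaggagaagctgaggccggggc
Smad3: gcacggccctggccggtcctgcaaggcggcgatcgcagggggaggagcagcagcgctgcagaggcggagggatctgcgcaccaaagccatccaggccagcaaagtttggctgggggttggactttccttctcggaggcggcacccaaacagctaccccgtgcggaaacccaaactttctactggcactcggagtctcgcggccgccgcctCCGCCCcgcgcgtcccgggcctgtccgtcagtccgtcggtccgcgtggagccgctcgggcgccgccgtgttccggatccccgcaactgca
The Tgfbr1 window held 3 GC boxes, beginning 141 and 103 bases before the start on the strand of the gene and 158 bases before it on the opposite strand, and the Smad3 window held 1, 40 bases before the start on the opposite strand. Their GC contents were 74.7% and 69.7%, against a median of 52.3% over all 27457 windows. The GC box, a site known to be bound by Sp1, was found in 6 of the 9 windows (Tgfbr1, Tgfbr2, Smad3, Smad7, Thbs1 and Bambi) and in 34.9% of all windows. The Smad binding element core CAGAC was in 0 of the 9 and in 50% of all windows. Its palindrome GTCTAGAC, which does not contain the core as spelled here, was in 0 of the 9 and in 0.215%, and the TATA box TATAAA was in 0 of the 9 and in 14.3%. Both strands were searched, and these counts describe the letters of these windows alone.

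Tgfb1, the ligand that is most studied in liver fibrosis, was highest in hepatitis. Its intensity was 28.5, 27.3 and 37.1 in controls, 39.1, 44.1 and 39.5 in hepatitis, 35.8, 40.4 and 28.9 in cirrhosis and 34.6, 23.4 and 26.9 in HCC. The hepatitis arrays lay above every control array and every HCC array, while cirrhosis and HCC overlapped with control. HCC was lower than hepatitis by a log2 difference of -0.37 ± 0.12 (SE, adjusted p = 0.0402), and this call held in 5 of the 12 fits that left out 1 array (adjusted p 0.0139 to 0.124). It was lost with the replicate number as a block (0.0728), with only HCC and hepatitis in the fit (0.0821) and with array weights (0.126). Against control the difference was 0.28 ± 0.12 in hepatitis (adjusted p = 0.271), 0.12 ± 0.12 in cirrhosis (adjusted p = 0.731) and -0.09 ± 0.12 in HCC (adjusted p = 0.644). The macrophage markers, which name a cell type known to release this ligand, summed to 2045 to 2850 in HCC against 7497 to 8986 in hepatitis and 4865 to 10751 in controls. In HCC against hepatitis 7 of 9 were lower and 0 higher, and in HCC against control 5 of 9 were lower and 0 higher. The part of these markers in the Tgfb1 difference was not tested.

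Tgfb2, a ligand with known roles in development and in stromal and biliary cells, had 2 probe sets above the offset of 16. On the one with the higher mean (1387172_a_at) the intensity was 20.0, 21.8 and 20.0 in controls, 27.1, 20.7 and 21.1 in hepatitis, 38.3, 36.3 and 28.9 in cirrhosis and 42.5, 29.2 and 25.9 in HCC. All cirrhosis and HCC arrays lay above all controls. The log2 difference from control was 0.39 ± 0.12 in HCC (adjusted p = 0.0381, 1.58 times the mean intensity) and 0.46 ± 0.12 in cirrhosis (adjusted p = 0.0784). Without HCC replicate 1 the HCC difference was 0.25. The HCC call was lost without that array (0.0832), without cirrhosis replicate 2 (0.0546), without control replicate 1 (0.0967), 2 (0.0759) or 3 (0.0957) and with only HCC and control arrays in the fit (0.108). It was also lost with quantile normalization (0.0595), an offset of 64 (0.0535) and array weights (0.0937). The cirrhosis difference passed when the 3 HCC arrays were left out of the fit (adjusted p = 0.0179, a setting chosen after seeing the data) and with only cirrhosis and control in it (0.0123).

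The other Tgfb2 probe set (1388011_a_at) gave 22.1, 24.8 and 21.3 in controls, 24.3, 21.2 and 23.2 in hepatitis, 32.2, 27.1 and 39.0 in cirrhosis and 22.7, 25.6 and 26.2 in HCC. Both probe sets were thus highest on average in cirrhosis, and they disagreed on HCC. Here HCC overlapped with control (0.08 ± 0.08, adjusted p = 0.549) and was lower than cirrhosis by -0.25 ± 0.08 (adjusted p = 0.0431), a call kept in 1 of 12 fits with an array left out. On the first probe set the same comparison gave -0.07 ± 0.12 (adjusted p = 0.731). Cholangiocyte and ductular markers summed to 736 to 831 in cirrhosis and 497 to 6230 in HCC against 311 to 339 in controls, with 1 of 8, Epcam, higher in HCC, and their part in the Tgfb2 differences was not tested.

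Tgfb3, the third ligand, varied most within hepatitis. Its intensity was 30.3, 31.1 and 29.2 in controls, 47.1, 25.3 and 60.7 in hepatitis, 38.5, 31.0 and 39.1 in cirrhosis and 37.5, 32.8 and 34.9 in HCC. Hepatitis replicate 2 lay below every control and the other hepatitis arrays above every array of all other groups. All HCC arrays lay above all controls, by a log2 difference of 0.14 ± 0.18 that was not called (adjusted p = 0.616). The hepatitis difference was 0.34 ± 0.18 (adjusted p = 0.427), and without hepatitis replicate 2 it was 0.59 (adjusted p = 0.0203).

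Tgfbr1, the type I receptor kinase, was higher than control in HCC and in hepatitis. On its brighter probe set (1376636_at) the intensity was 376, 349 and 316 in controls, 773, 635 and 508 in hepatitis, 537, 508 and 547 in cirrhosis and 1012, 601 and 706 in HCC. No array of a DEN group overlapped with the controls. The means were 347 ± 29.8, 638 ± 133, 530 ± 20.3 and 773 ± 213 (SD, n = 3 each) in control, hepatitis, cirrhosis and HCC. HCC exceeded control by a log2 difference of 1.09 ± 0.19 (adjusted p = 0.00221, 2.23 times the mean intensity), and this call held in all 22 alternative fits, with differences of 0.55 to 1.34. Without HCC replicate 1, the highest array, it was 0.88 (adjusted p = 0.00305).

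The other 2 differences of Tgfbr1 from control were less firm. Hepatitis exceeded control by 0.83 ± 0.19 (adjusted p = 0.0477, 1.84 times), and the call held in 3 of 12 fits with an array left out, with adjusted p of 0.0122 to 0.176. The call was also lost with only hepatitis and control in the fit (0.0531). Cirrhosis differed from control by 0.59 ± 0.19 (adjusted p = 0.131), which passed without the HCC arrays (0.0325) and with only cirrhosis and control in the fit (0.00389). In order of level, control came first, then cirrhosis, hepatitis and HCC, and no neighbours in that order differed by the test on all arrays (cirrhosis against control as above, hepatitis and cirrhosis adjusted p = 0.793, HCC against hepatitis 0.358). HCC against cirrhosis gave 0.50 ± 0.19 (adjusted p = 0.0701) with no overlap.

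The second Tgfbr1 probe set (1369504_at) read 7.28 to 11.1 on all 12 arrays, under the offset of 16, and its difference from control in HCC was 0.01 ± 0.05 (adjusted p = 0.924). The finding for Tgfbr1 therefore rests on 1 probe set. Stellate cell and myofibroblast markers, which name cells that carry this receptor, summed to 3876 to 6317 in HCC against 3297 to 4007 in controls, with 6 of 16 higher and 4 lower, and to 3807 to 5198 in hepatitis, with 2 higher and 0 lower. Of this list Gfap and Ngfr had a mean under 16. HCC replicate 1, with the highest Tgfbr1, also had the highest summed stellate markers (6317) and cholangiocyte markers (6230) of all 12 arrays, and the part of these cells in the result was not tested.

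Bambi, the pseudoreceptor, overlapped between groups except that the cirrhosis arrays all lay above the controls. Its intensity was 121, 134 and 102 in controls, 183, 174 and 98.4 in hepatitis, 146, 180 and 140 in cirrhosis and 181, 126 and 181 in HCC. The log2 difference from control was 0.28 ± 0.22 in hepatitis (adjusted p = 0.645), 0.34 ± 0.22 in cirrhosis (0.518) and 0.39 ± 0.22 in HCC (0.212). One hepatitis array, at 98.4, lay below all controls, and one HCC array, at 126, lay inside their range.

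**Figure D2:**
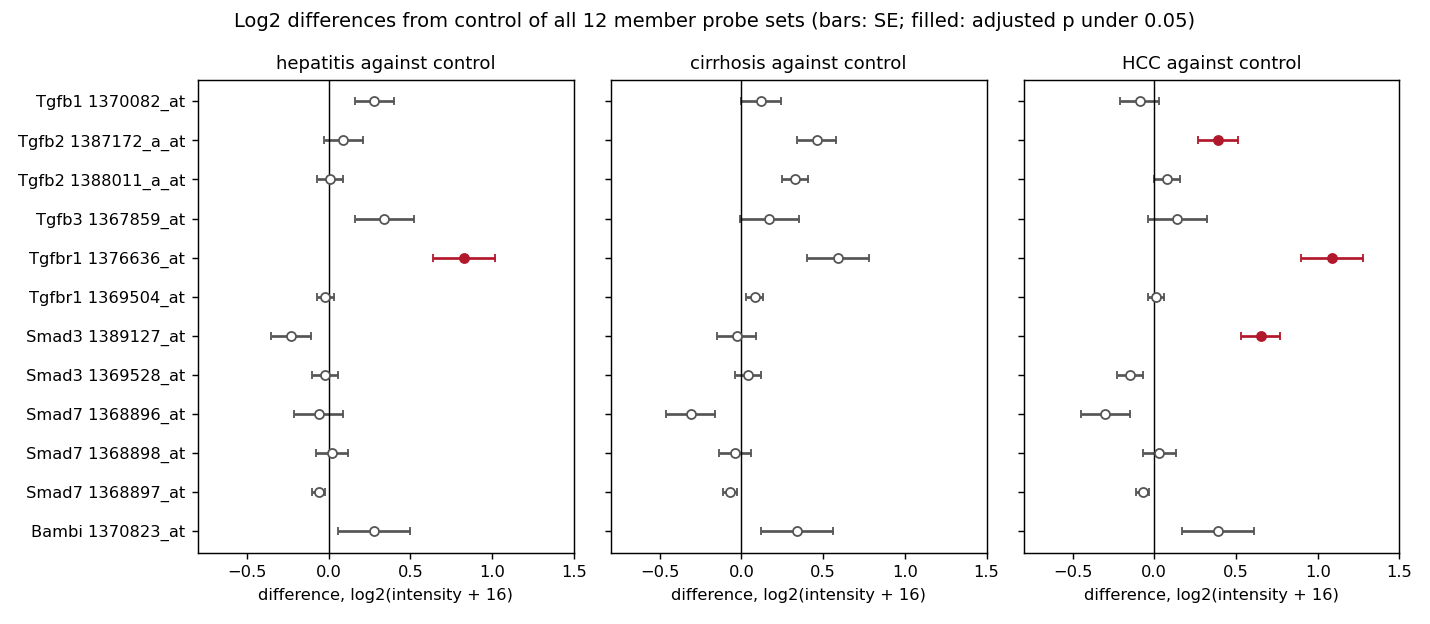
Log2 differences from control with their standard errors (x axis, scale of log2(intensity + 16)) for all 12 probe sets of the 7 genes, in hepatitis, cirrhosis and HCC, each with 3 arrays against 3. Filled points mark an adjusted p under 0.05, reached by Tgfbr1 in hepatitis and by Tgfb2, Tgfbr1 and Smad3 in HCC, each on 1 probe set.

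Smad3, the transcription factor that carries the TGF beta signal to DNA, was higher in HCC than in every other group. On its brighter probe set (1389127_at) the intensity was 96.8, 92.0 and 79.2 in controls, 73.1, 75.4 and 72.8 in hepatitis, 85.3, 87.5 and 88.3 in cirrhosis and 192, 136 and 125 in HCC. The 3 HCC arrays lay above the other 9, and the 3 hepatitis arrays lay below all others. The log2 difference of HCC was 0.65 ± 0.12 from control (adjusted p = 0.00403), 0.67 ± 0.12 from cirrhosis (adjusted p = 0.00285) and 0.87 ± 0.12 from hepatitis (adjusted p = 0.000841). These are 1.69, 1.73 and 2.04 times the mean intensity.

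The calls of Smad3 against cirrhosis and against hepatitis held in all 22 alternatives each. That against control held in 21, and was lost with only HCC and control arrays in the fit (adjusted p = 0.0546). Without HCC replicate 1 the difference from control was 0.48 (adjusted p = 0.00137). No difference among hepatitis, cirrhosis and control was called. Hepatitis differed from control by -0.23 ± 0.12 (adjusted p = 0.445), cirrhosis from control by -0.03 ± 0.12 (0.968) and cirrhosis from hepatitis by 0.20 ± 0.12 (0.696). The second Smad3 probe set (1369528_at) read 7.46 to 16.5, near or under the offset, and differed from control in HCC by -0.15 ± 0.08 (adjusted p = 0.238), so its sign is opposite and the result rests on 1 probe set. Hepatocyte markers went the other way from the brighter Smad3 probe set, with 8 of 12 lower and 0 higher in HCC against control. Endothelial markers summed to 851 to 1754 in HCC against 3222 to 3728 in controls, with 5 of 9 lower and 0 higher. The part of hepatocytes and endothelium in the Smad3 difference was not tested.

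Smad7, the inhibitory Smad, had lower means in cirrhosis and HCC with no call. On its brightest probe set (1368896_at) the intensity was 199, 192 and 140 in controls, 151, 183 and 170 in hepatitis, 148, 128 and 139 in cirrhosis and 129, 119 and 173 in HCC. The log2 difference from control was -0.06 ± 0.15 in hepatitis (adjusted p = 0.935), -0.31 ± 0.15 in cirrhosis (0.354) and -0.30 ± 0.15 in HCC (0.162). A single control array at 140 and a single HCC array at 173 lay in the range of the other group, and without either one the HCC difference was -0.45 and was called (adjusted p 0.0438 without control replicate 3 and 0.0433 without HCC replicate 3). The other 2 probe sets, reading 31.2 to 45.2 (1368898_at) and 5.81 to 8.18 (1368897_at), gave 0.03 ± 0.10 and -0.07 ± 0.04 for HCC against control, neither called.

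**Figure D3:**
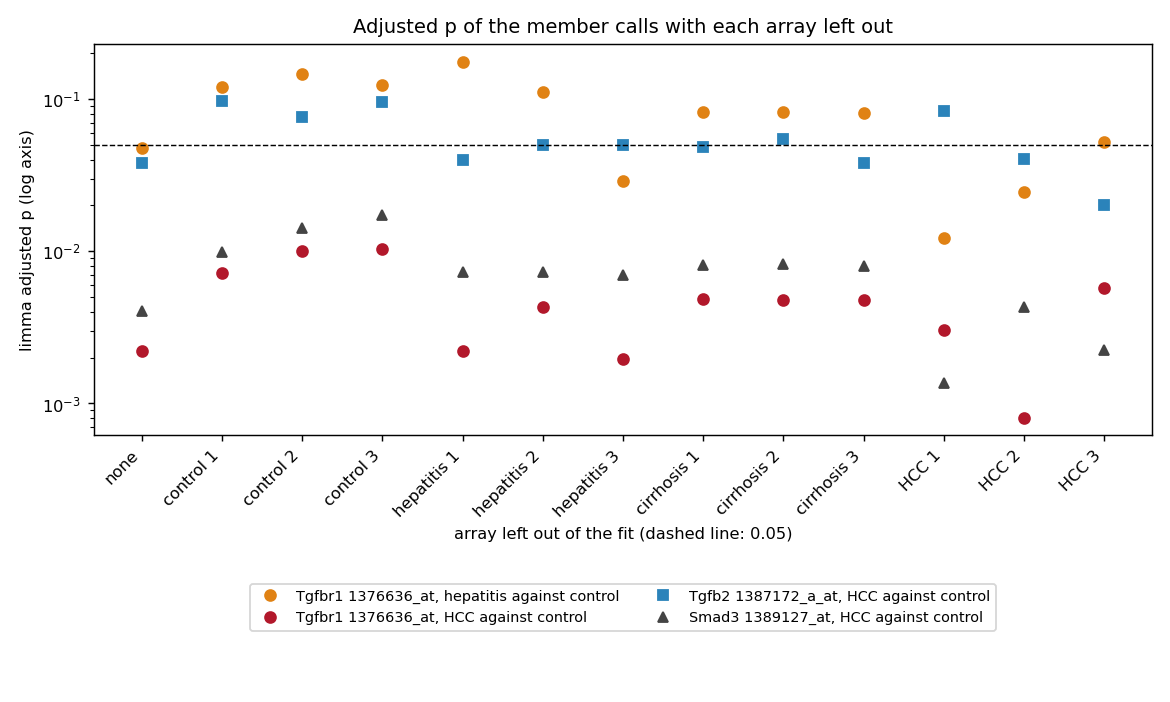
Adjusted p (y axis, log scale) of 4 calls with each array left out of the fit in turn (x axis), with a dashed line at 0.05. Tgfbr1 and Smad3 in HCC against control stay below the line throughout, at no more than 0.0103 and 0.0174, while Tgfbr1 in hepatitis against control is below it in 3 of 12 fits and Tgfb2 in HCC against control in 7 of 12.

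The rest of the pathway was read through 5 gene lists, each gene by its probe set of highest mean. In HCC against control 19.1% of all genes were called higher and 18.3% lower, the shares beside which each list's counts are given. The share of all probe sets called moved as well. It was 29.8% on all arrays and 21.4% to 34.3% with an HCC or control array left out. Among the 18 measured genes of ligand storage and activation, 4 were higher and 4 lower in HCC than in control (2 to 4 and 3 to 5 with an HCC or control array left out), with a median difference of 0.11. Plg, plasminogen, whose active form can release latent TGF beta and which hepatocytes make, read 2195, 3845 and 1180 in HCC and 5232, 5182 and 5036 in controls (-1.25 ± 0.32, adjusted p = 0.0165). Itgb3 and Itgb5, beta chains that pair with the alpha v integrin to free the ligand, were lower by -1.15 ± 0.14 (adjusted p = 0.000407) and -0.82 ± 0.19 (0.01). Itgb3 is also on the platelet list, whose markers summed to 288 to 381 in HCC and 513 to 549 in controls. Of that list 2 of 7 were lower, Itgb3 itself and Itga2b, and 0 higher. The sums include Itgb3, with means of 112 in HCC and 270 in controls, so they are not separate from its own difference. The part of platelets was not tested. For Itgb5 another probe set gave -0.46 (adjusted p = 0.00892) and a further one -0.04 (0.738). Ltbp2, a matrix protein of the latent TGF beta binding family, was higher by 0.88 ± 0.15 (adjusted p = 0.00197).

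In hepatitis this list had 1 of 18 genes called, beside 3.73% of all genes. Without the HCC arrays it had 2 higher and 1 lower, beside 10.0% of all probe sets. The gene called on all arrays was Itgav, the alpha v integrin chain. It read 210, 172 and 171 against 122, 126 and 114 in controls (0.55 ± 0.08, adjusted p = 0.0108). Its other 2 probe sets gave 0.70 and 0.52 with adjusted p of 0.183 and 0.275. Cirrhosis called 0 of 18, beside 3.64% of all genes, with Itgb3 at -0.52 (adjusted p = 0.0828). Without the HCC arrays it called 0, beside 10.7% of all probe sets.

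Of 10 measured co-receptors and related receptors, 4 were higher and 1 lower in HCC. With an HCC or control array left out, 1 to 4 were higher and 1 to 2 lower. The 4 fell to 2 without HCC replicate 1, where 30.0% of all probe sets were called. They also fell to 2 without any 1 of the controls (21.4% to 23.9%) and to 1 without HCC replicate 3 (25.6%). Eng, endoglin, an endothelial co-receptor, was lower in HCC, at 123, 145 and 129 against 251, 216 and 233 in controls (-0.75 ± 0.07, adjusted p = 0.00015), and it was lower in cirrhosis by -0.33 ± 0.07 (adjusted p = 0.045), a call held in 3 of 12 fits with an array left out. Endothelial markers were lower in HCC too, as given above for Smad3, and the part of these cells was not tested. Bmpr2, the type II receptor for bone morphogenetic proteins (BMPs), was higher by 0.55 ± 0.14 (adjusted p = 0.0157), with 0.07 (0.593) on its other probe set, and its call was lost without HCC replicate 3 (0.0543) or control replicate 3 (0.0522). The type II activin receptors Acvr2b and Acvr2a were higher by 0.53 ± 0.17 (adjusted p = 0.036) and 0.36 ± 0.09 (0.0117). The Acvr2b arrays overlapped between HCC and control, and that call held in 3 of 12 fits with an array left out. Acvr2a was also higher in cirrhosis (0.39 ± 0.09, adjusted p = 0.0421, held in 5 of 12). Hepatitis called 0 of 10, beside 3.73% of all genes, with Eng at -0.27 (0.102).

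Among 19 Smads and Smad regulators, 7 were higher and 4 lower in HCC, and the median difference was 0.23. With an HCC or control array left out, 4 to 7 were higher and 1 to 3 lower. The count lower was 1 without HCC replicate 3 or control replicate 2, where 25.6% and 21.4% of all probe sets were called. Pmepa1, a membrane protein that TGF beta induces and that holds back Smad2 and Smad3, rose by the most in this list. It read 76.4, 77.0 and 68.2 in controls, 179, 110 and 99.9 in hepatitis, 204, 171 and 210 in cirrhosis and 733, 375 and 380 in HCC, so that no HCC array overlapped with another group. Its log2 difference from control was 2.44 ± 0.26 in HCC (adjusted p = 0.00021), held in all 22 alternatives, and 1.23 ± 0.26 in cirrhosis (adjusted p = 0.0357), held in 6 of 12 fits with an array left out. Skil, the Smad corepressor SnoN, was higher in HCC by 1.05 ± 0.16 (adjusted p = 0.00119), and Ppm1a, a phosphatase that acts on Smad2 and Smad3, was lower by -1.32 ± 0.12 (adjusted p = 9.02e-05).

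Dab2, an endocytic adaptor linked to receptor traffic, was far higher on 1 HCC array than on the other 2. It read 1334, 272 and 432 in HCC and 195, 186 and 179 in controls, a difference of 1.46 ± 0.45 (adjusted p = 0.0334). Without HCC replicate 1 the difference was 0.83 (adjusted p = 0.0155). The call held in 7 of 12 fits with an array left out. Among the fits that lost it were those without any 1 of the 3 controls (0.0757 to 0.0843). Smad1, a Smad of the BMP branch, was called higher in cirrhosis (0.51 ± 0.11, adjusted p = 0.0418) on both of its probe sets, the other giving 0.35 (0.0287). On the first this held in 4 of 12 fits with an array left out. Hepatitis called 0 of 19, beside 3.73% of all genes, with Smad4, the shared partner of the receptor Smads, at 0.18 (adjusted p = 0.151). With the HCC arrays left out of the fit, hepatitis called 3 of 19 higher and cirrhosis 4, beside 10.0% and 10.7% of all probe sets.

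Of 21 transcriptional targets, 5 were higher and 3 lower in HCC, and 3 to 7 higher and 2 to 3 lower with an HCC or control array left out. Id3, a helix-loop-helix inhibitor best known as a BMP target, read 78.4, 49.8 and 28.8 in HCC and 308, 312 and 343 in controls (-2.37 ± 0.22, adjusted p = 0.00012). Tgfbi, a matrix protein named for its induction by TGF beta, was lower by -1.61 ± 0.32 (adjusted p = 0.00463). Col1a1, the chain of type I collagen, was higher by 1.37 ± 0.35 (adjusted p = 0.0152), with the same value on its other probe set, and at 818, 478 and 608 in HCC it did not overlap with the 187 to 321 of controls. The call of Col1a1 was lost without control replicate 1 (0.0526) or 3 (0.0548). Postn, the matrix protein periostin, read 203, 25.6 and 34.6 in HCC and 5.68 to 9.58 in controls (1.75 ± 0.52, adjusted p = 0.0296), its difference was 1.00 without HCC replicate 1, and its call was lost without any 1 of the controls (0.0656 to 0.0779). Col1a1 is also among the stellate markers given above for Tgfbr1.

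In hepatitis 2 of 21 targets were called, both higher, beside 3.73% of all genes (1.72% higher), with a list median of 0.30. Cdkn1a, the cell cycle inhibitor p21, which p53 also induces after DNA damage, read 2011, 1669 and 2595 in hepatitis and 242, 198 and 89.1 in controls (3.53 ± 0.32, adjusted p = 0.000892). In cirrhosis it read 244, 197 and 205, with 2 arrays inside the range of controls and 1 just above it. Id2, another helix-loop-helix inhibitor, was higher in hepatitis by 1.13 ± 0.24 (adjusted p = 0.0369, held in 4 of 12 fits with an array left out). Its other probe set gave 1.27 (0.0526), and in HCC Id2 was lower than control (-0.87 ± 0.24, adjusted p = 0.021). Cirrhosis called 1, beside 3.64% of all genes. This was Col5a1, a collagen V chain, lower by -0.83 ± 0.18 (adjusted p = 0.0376, held in 7 of 12), with -0.92 (0.0195) on its other probe set. Without the HCC arrays hepatitis called 5 higher and 2 lower, and cirrhosis 1 higher and 3 lower, beside 10.0% and 10.7% of all probe sets.

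Of 21 BMP and activin ligands and their antagonists, 6 were higher and 5 lower in HCC (5 to 6 and 4 to 6 with an HCC or control array left out), with a median of -0.07. Inhbb, the activin beta B chain, read 180, 44.5 and 75.8 in HCC and 11.7, 10.3 and 10.6 in controls (1.94 ± 0.35, adjusted p = 0.00289). Inhbe, the activin beta E chain made mostly by hepatocytes, went the other way, at 81.8, 303 and 338 in HCC against 1045, 1012 and 603 in controls (-1.98 ± 0.52, adjusted p = 0.0177). Fst, follistatin, which binds activins, read 225, 39.6 and 102 in HCC and 19.9 to 20.9 in controls (1.68 ± 0.45, adjusted p = 0.0201), and its difference was 1.50 (0.0178) on the other probe set. Dcn, decorin, a proteoglycan that binds TGF beta and a stellate marker, read 1640, 363 and 592 in HCC and 132, 234 and 158 in controls (1.96 ± 0.47, adjusted p = 0.0115). Without HCC replicate 1 its difference was 1.37 (adjusted p = 0.012). In hepatitis and cirrhosis it differed from control by 1.60 and 1.42, which were not called (0.116 and 0.15), with no overlap.

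Without HCC replicate 3 or any 1 of the controls the call of Fst was lost (0.0504 to 0.058), and that of Inhbe was lost without control replicate 1 (0.0598) or 2 (0.0612). Cirrhosis called 1 of 21, beside 3.64% of all genes. This was Bmp4, a BMP ligand, at 36.6, 37.9 and 39.5 against 11.7, 13.0 and 13.4 in controls (0.91 ± 0.11, adjusted p = 0.00524), which held in all 23 alternatives. In hepatitis Bmp4 read 25.4, 23.8 and 20.1 and in HCC 32.6, 18.2 and 29.1, and no array of a DEN group overlapped with controls. Hepatitis called 0 of 21, beside 3.73% of all genes, with Bmp5, a BMP ligand, at 0.39 (adjusted p = 0.0643) and at 0.06 (0.7) on its other probe set. Without the HCC arrays hepatitis called 3 higher and 0 lower, and cirrhosis 3 higher and 1 lower, beside 10.0% and 10.7% of all probe sets.

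With only the HCC and control arrays in the fit, the calls in HCC of Plg, Itgb5, Acvr2a, Acvr2b, Dab2, Postn, Tgfbi, Inhbe, Dcn and Fst were lost, with adjusted p of 0.0545 (Tgfbi) to 0.158 (Acvr2b). With array weights those of Bmpr2 (0.0628), Acvr2a (0.0655) and Col1a1 (0.103) were lost. Pmepa1, Skil, Ppm1a, Id3, Inhbb, Itgb3, Ltbp2 and Eng kept their HCC call in all 22 alternatives.

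**Figure D4:**
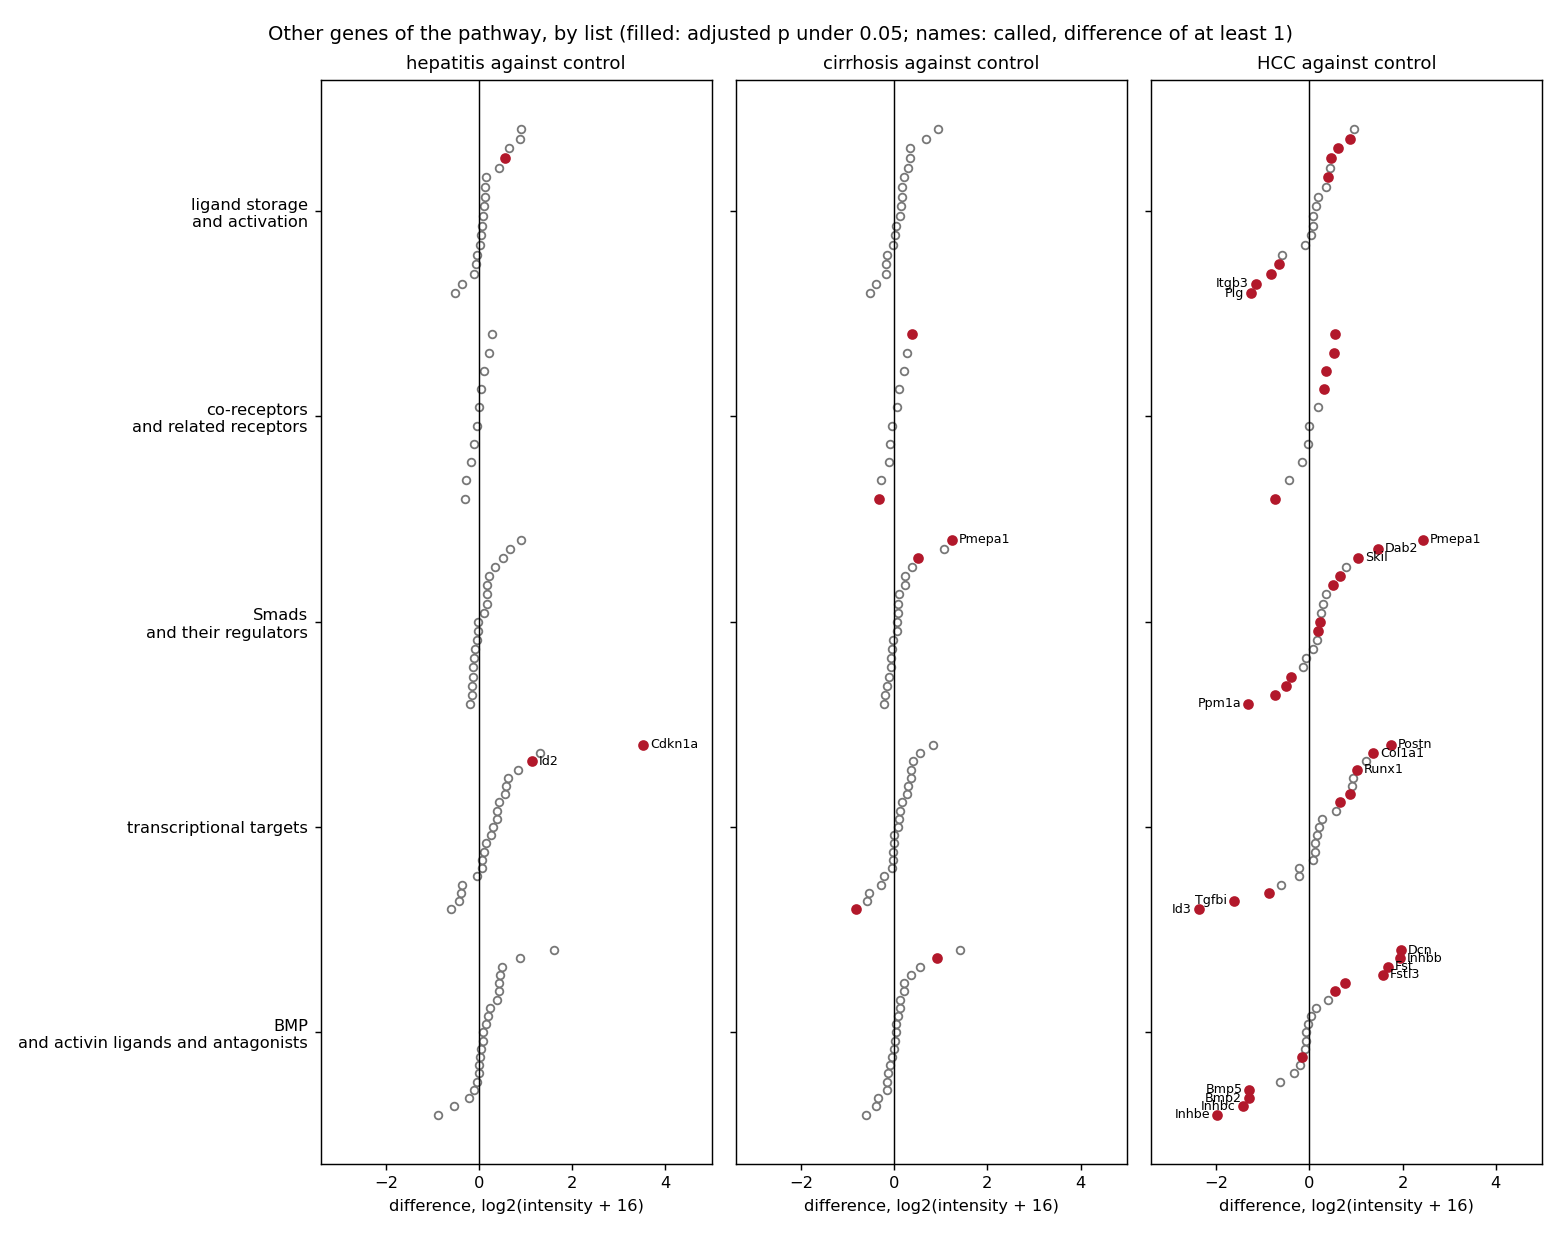
Log2 difference from control (x axis, scale of log2(intensity + 16)) of every measured gene of the 5 pathway lists, 1 point a gene and sorted within each list, in hepatitis, cirrhosis and HCC. Filled points have an adjusted p under 0.05, and names stand at called genes with a difference of at least 1, such as Cdkn1a (3.53) in hepatitis, Pmepa1 in cirrhosis (1.23) and HCC (2.44) and Id3 (-2.37) in HCC.

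Across the 12 arrays, the genes most like each member were taken from 7747 genes with a mean intensity of at least 64, by Pearson correlation of log2(intensity + 16), as a description. Since the arrays share stage, RNA quality and the distance of HCC from the rest, high values are easily reached. For Tgfbr1 they were Tns3 (0.978), Wdr45b (0.969) and Samd4b (0.969), and for Smad3 they were Trim27 (0.973), Nedd4 (0.965) and Strn3 (0.963). For Tgfb1 they were Hcst (0.922), Map7d1 (0.903) and Il1b (0.9), and for Tgfb2 Sema6a (0.945), B3gnt2 (0.929) and Map3k1 (0.929). For Smad7 they were Dhrs13 (0.883), Rmc1 (0.85) and Vps51 (0.823), for Bambi Med11 (0.905), Nrp1 (0.872) and Pcyox1 (0.86), and for Tgfb3 Pla2g12a (0.864), Kctd10 (0.812) and Spsb1 (0.794).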

How the data were processed

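RNA of 12 rat livers, 3 in each of 4 groups, was measured on single-colour arrays with 31099 probe sets. The deposited values are linear intensities. MAS5 and RMA are both listed, per the submitters' processing notes, without role, order or version, so background correction and summary cannot be told further. Array medians lay between 28.69 and 30.94, and 33.9% to 35.8% of values were under 16. The number of arrays limits the precision.

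Groups came from the labels. The 57 array controls were left out, and log2(value + 16) of the other 31042 probe sets, with no further normalization, was fitted with limma 3.58.1 in R 4.3.3 (lmFit and eBayes, 4 group means, all 12 arrays), with Benjamini-Hochberg adjustment over all probe sets and a threshold of 0.05. Symbols came from the platform annotation: 20826 probe sets had 1 gene, 436 several and 9780 none, and 14 symbols were not found in RefSeq. A gene was counted by its probe set with the highest mean. The fit was tested on simulated data for HCC against control over 31042 probe sets, where 83 of 100 probe sets changed by 1 (log2), 95 of 100 changed by 2 and 8 of 30842 unchanged ones were called. The simulation gave each probe set the same spread in every group. In the data the median SD (log2) was 0.144 in HCC, 0.0712 in control, 0.0804 in hepatitis and 0.0652 in cirrhosis. The simulated counts therefore do not give the error rate of the HCC comparisons at unequal spread.

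The members and all gene lists were chosen with earlier results of these data known. Every member is named. From each list, up to 4 called genes by size in each comparison with control, or the gene of smallest adjusted p where none was called, are named, and 3 genes most like each member. Alternatives were offsets of 1 and 64, quantile normalization, probe sets with a mean of at least 16, 1 probe set per gene, the mean of a gene's probe sets, a trended prior, array weights, only the 2 groups compared, the replicate number as a block, and each array left out. Fits without the HCC arrays, and list counts with arrays left out, were chosen after seeing the data. Tgfbr2 and Thbs1 were not analysed here.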

Additional observations from a re-analysis of the deposited data

Results flagged for a closer look

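Smad3 stood out because the difference between the HCC group and each of the earlier DEN groups was itself tested and passed. HCC also differed from both of these groups in time, RNA quality and cell markers, and from hepatitis in number of injections. HCC exceeded cirrhosis by 0.67 on the log2(intensity + 16) scale (adjusted p = 0.00285) and hepatitis by 0.87 (adjusted p = 0.000841), and all 3 HCC arrays lay above all arrays of both.

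Tgfb1 differed between DEN groups in the other direction, with HCC lower than hepatitis by -0.37 (adjusted p = 0.0402), all 3 HCC arrays lying below all 3 hepatitis arrays, and the call was lost in 7 of 12 fits with an array left out. On the Tgfb2 probe set 1388011_a_at, HCC was lower than cirrhosis by -0.25 (adjusted p = 0.0431), with no overlap. On the other Tgfb2 probe set that comparison gave -0.07 (adjusted p = 0.731).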

How the results depend on the processing

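Over the 8 called differences of members, 128 of 175 alternative values kept the call, 47 lost it and 0 changed sign. Of 1367 alternative values of the 64 differences not called, 25 passed the threshold and 46 changed sign without a call. The count of member genes called moved as follows. Brackets give the share called over all probe sets in the same fit. With the mean of a gene's probe sets that share is over genes. With probe sets of mean at least 16 it is over those. For hepatitis against control, 1 as reported (2.95%), it was 0 with an offset of 64 (2.74%). It was 0 with only the 2 groups compared (3.83%) and 0 to 1 with an array left out (0.957% to 5.32%). For cirrhosis against control, 0 as reported (3.62%), it was 1 with the mean of a gene's probe sets (3.29%). It was 2 with only the 2 groups compared (15.9%), 2 with array weights (15.9%) and 2 without the HCC arrays (10.7%). With an array left out it was 0 to 2 (0.625% to 6.07%). The share over all probe sets thus rose along with the count in the fits that called 2. For HCC against control, 3 as reported (29.8%), it was 1 with only the 2 groups compared (16.1%). It was 2 with an offset of 64 (28.2%), with quantile normalization (30.3%) or with array weights (24.2%). With an array left out it was 2 to 4 (21.4% to 34.3%). For cirrhosis against hepatitis, 0 as reported (0.651%), it was 1 with the mean of probe sets (1.07%) and 1 with array weights (3.80%). With any array left out it was 0 (0.203% to 1.41%). For HCC against cirrhosis, 1 as reported (32.2%), it was 2 with probe sets of mean at least 16 (44.4%). It was 2 with quantile normalization (33.0%) and 1 to 2 with an array left out (24.5% to 36.4%). For HCC against hepatitis, 2 as reported (29.0%), it was 1 with only the 2 groups compared (12.2%) and 1 with array weights (22.4%). It was 3 with the mean of probe sets (35.2%) and 1 to 2 with an array left out (21.6% to 33.4%). For any difference among groups, 3 as reported (33.2%), it was 2 with an offset of 64 (30.7%). With an array left out it was 2 to 4 (27.1% to 37.5%). The causes of these moves were not tested. A fit on 2 groups holds 6 arrays and takes its spread from those groups alone, and counts moved in both directions with it. Replicates of the same number did not deviate together (correlations of -0.225 to 0.34), so the numbers were not taken as pairs. With the replicate block the counts were 1, 0 and 3 for hepatitis, cirrhosis and HCC against control (2.53%, 2.31% and 28.7%). They were 0 for cirrhosis against hepatitis (0.428%), 2 for HCC against cirrhosis (31.0%) and 3 for any stage (30.9%). For HCC against hepatitis the count was 2 (27.7%), Tgfb2 and Smad3, since Tgfb1 lost its call at an adjusted p of 0.0728. The medians over all probe sets in the 6 comparisons lay between -0.01 and 0.00 with quantile normalization and between -0.01 and 0.02 without it. The offset of 16 compresses differences between low values, which limits the dim probe sets of Tgfbr1, Smad3 and Smad7.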
